A study of Mus musculus with 15 samples.

Results

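The levels of 10 neuropeptide genes were followed in nuclear RNA of sorted cortical parvalbumin neurons of mice. The genes were Tac1, Npy, Cck, Cort, Nppc, Crhbp, Pthlh, Sst, Vip and Pdyn. They were taken by name as peptide genes of cortical interneurons and were found in all 15 count tables, which together list 57282 genes. All 15 mice were adults with a PvCre driver and a ROSA-tomato-lox reporter, so that Cre, expressed from the parvalbumin gene, switched on a nuclear fluorescent protein. The Mut group (n = 4) had the genotype PvCre ROSA-tomato-lox ThraAMI/+, in which a floxed allele of Thra, which encodes thyroid hormone receptor alpha, gives rise to a dominant negative receptor. The other mice had the genotype PvCre ROSA-tomato-lox Thra+/+. The PTU_TH group (n = 4) ate pellets with PTU (propylthiouracil, a blocker of thyroid hormone synthesis) for 2 weeks and received thyroid hormone intraperitoneally 24 h before the cortex was dissected. The PTU group (n = 3) had the same diet without the hormone, and the Ctrl group (n = 4), littermates of the Mut mice, was untreated. Per the labels' protocol the nuclei came from individual cortices, and the numbered libraries of a group were taken as separate mice; the labels give no animal identifiers, so p-values measure the spread between these libraries. In any cell where the driver had acted the reporter could be on, and a bulk library cannot tell fewer cells of a type from less RNA per cell.

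Neuropeptides are cut from larger precursors in the secretory pathway, stored in dense core vesicles and released by strong or repeated firing, after which they act on G protein-coupled or guanylyl cyclase receptors of nearby cells. Cortical inhibitory interneurons are commonly classed by such genes. Sst and Vip each name a class, Npy and Cck are typical of further classes, and Tac1, Cort, Crhbp and Pthlh are also known from parvalbumin cells.

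Library totals were 12957838 to 19141683 counts in PTU_TH and PTU and 22333742 to 32571175 counts in Mut and Ctrl. Values are CPM, counts scaled to the same total in every library. Hr, a direct thyroid hormone target, lay at 0.461 to 4.07 CPM in Mut, 43.1 to 49.5 CPM in PTU_TH, 2.52 to 5.94 CPM in PTU and 12.5 to 15.4 CPM in Ctrl. Thra was at 29.0 to 37.4 CPM in Mut and 48.2 to 62.8 CPM in Ctrl (log2 fold change −0.84 ± 0.14 (SE), adjusted p = 0.0280 by edgeR's quasi-likelihood test); these counts do not separate the 2 alleles. Pvalb, which defines the sorted cells, had 63.8 to 95.8 CPM in Mut, 120 to 145 CPM in PTU_TH, 91.5 to 109 CPM in PTU and 110 to 136 CPM in Ctrl. No 2 libraries of a group were alike within counting noise: a chi-square of their counts, divided by its degrees of freedom, came to 7.67 to 115.

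Promoter windows are given as background, and a relation of their motifs to the levels was not tested. RefSeq promoters of the GRCm38.p6 build, from 250 bases before to 50 after a transcript start, were available for all 10 genes. Both strands were searched for TGACGTCA, the cyclic AMP response element, and for its core TGACG, which the longer motif contains. The core lay in the promoters of 6 of the 10 genes (Tac1, Cck, Cort, Crhbp, Sst and Vip) and in 20.8% of 32851 promoters. The full element lay only in Sst among the 10 genes, and in 1.79% of all promoters. Windows of 30 bases around the core are printed on the strand of the gene, with the motif in capitals (CGTCA is the core read on the opposite strand).
Tac1, chr6:7555006-7555035, plus strand: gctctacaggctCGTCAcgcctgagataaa
Cck, chr9:121495724-121495753, minus strand: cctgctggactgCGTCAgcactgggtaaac
Cort, chr4:149126764-149126793, minus strand: ctccggcttgtgCGTCAccgcgtgagtgtg
Crhbp, chr13:95444878-95444907, minus strand: gagctggaccctCGTCAttgccacgcattt
Sst, chr16:23890874-23890903, minus strand: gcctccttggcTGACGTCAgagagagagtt
Vip, chr10:5639127-5639156, plus strand: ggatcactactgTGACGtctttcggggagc
The first base of the motif stood at −43 for Tac1, −47 for Cck, −18 for Cort, −64 for Crhbp, −48 for Sst and −79 for Vip, counted from −1 just before the start. That start is the RefSeq one. In the GENCODE annotation the windows of Tac1, Crhbp and Sst overlap exons, and those of Cck, Cort and Vip do not. The Tac1 promoter held a second core at −197. AGGTCA, the half-site of thyroid hormone receptors, was matched on either strand only in Crhbp, at −152, among the 10 genes, and in 16.3% of all promoters. None of the member promoters held 2 such half-sites as a direct repeat with a spacer of 4 bases (0.0152% of all promoters) or the AP-1 motif TGAGTCA (5.20%), each searched on both strands. TATAAA on the sense strand was found in Nppc, Crhbp and Vip, and in 8.32% of all promoters. It stood at −29 in Nppc and at −157, −147 and −30 in Vip, but 30 bases after the start in Crhbp. These matches describe letters in a window and show no binding.

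All 10 genes are short. Their spans in the GENCODE annotation of GRCm38 run from 1386 bases (Sst, chr16:23889573-23890958) to 13554 bases (Crhbp, chr13:95431371-95444924), and none shares exonic bases with another gene. Per kb of annotated exon, Npy, the precursor of neuropeptide Y, was the highest of the 10 in Ctrl, with a mean of 91.9 CPM per kb. Crhbp, a secreted protein that binds corticotropin-releasing hormone, and Tac1, the precursor of substance P and neurokinin A, followed with 31.7 and 30.5 CPM per kb. Cck (cholecystokinin) had 22.8 CPM per kb, Cort (cortistatin, a ligand of somatostatin receptors) 20.5 CPM per kb and Pthlh (parathyroid hormone-related protein) 10.9 CPM per kb. The names of the other interneuron classes lay below these, with 8.55 CPM per kb for Sst (somatostatin) and 1.25 CPM per kb for Vip (vasoactive intestinal peptide). Nppc, the precursor of C-type natriuretic peptide, had 4.85 CPM per kb, and Pdyn, the precursor of the dynorphin opioids, had the lowest level, 0.274 CPM per kb. Pvalb had 114 CPM per kb in the same libraries.

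**Figure D1:**
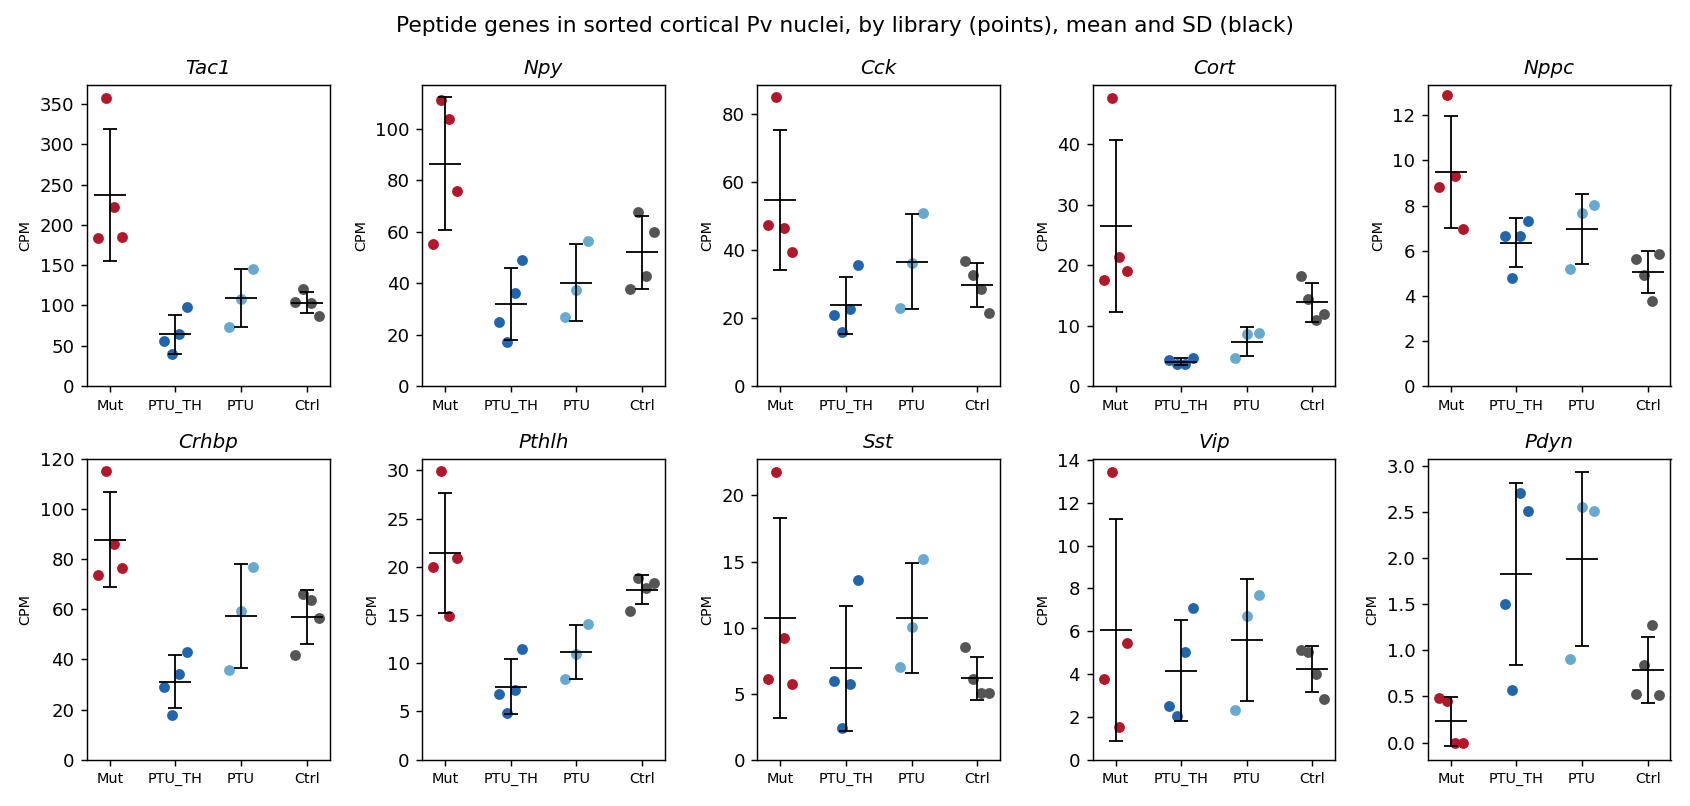
CPM of the 10 genes in each library, 1 panel per gene on its own axis. Points are libraries by group, and black lines give the group mean and its SD. Tac1 in Mut libraries, at 184 to 358 CPM, lies above all other libraries, and Cort in PTU_TH libraries, at 3.55 to 4.58 CPM, lies below all others.

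In the mice with the dominant negative receptor, Tac1 was the one peptide gene that rose past the test. It had 184, 358, 222 and 184 CPM in Mut replicates 1 to 4, against 104, 120, 103 and 87.3 CPM in Ctrl replicates 1 to 4. Every Mut library lay above every Ctrl library, and Mut replicate 2 was well above the other Mut libraries. The log2 fold change was 1.17 ± 0.19 (SE), a 2.25-fold difference, with an adjusted p of 0.0243 by edgeR's quasi-likelihood test, which ranked Tac1 37th by p among 16949 genes. It was the only one of the 10 genes past an adjusted p of 0.05, a threshold passed by 0.348% of all genes tested and, among higher genes, by 0.124%. The call held without Mut replicate 2 (log2 fold change 0.94, adjusted p = 0.0106 by edgeR), but not without any other single library, where edgeR's adjusted p ran from 0.0518 to 0.120 and the log2 fold change from 1.09 to 1.26. It was also lost with Y-linked counts as a covariate (log2 fold change 1.00, edgeR adjusted p = 0.120), where none of the 10 was called and 0.0708% of all genes were called higher.

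Y-linked genes had counts in Mut replicates 1, 2 and 3, PTU_TH replicates 3 and 4, PTU replicates 6 and 7 and Ctrl replicate 2, and almost none in the others. Tac1 was higher in Mut on both sides of this split, by 1.08 on the log2 scale where Y-linked counts were present (3 Mut libraries and 1 Ctrl library) and by 0.91 where they were absent (1 Mut library and 3 Ctrl libraries). Neither side alone allows a test with a spread in both groups.

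Cck, Nppc and Crhbp had higher ranges in Mut without overlap, but none passed the adjusted threshold in the edgeR test. Cck had 47.5, 85.1, 46.5 and 39.5 CPM in Mut and 36.7, 32.5, 28.5 and 21.4 CPM in Ctrl, replicates in order. The highest Ctrl library lay just below the lowest Mut library, and Mut replicate 2 was again the highest. Nppc had 8.82, 12.9, 9.30 and 6.96 CPM in Mut and 5.64, 4.92, 3.78 and 5.87 CPM in Ctrl. Crhbp had 73.6, 115, 86.0 and 76.5 CPM in Mut and 41.8, 66.0, 63.6 and 56.5 CPM in Ctrl. The log2 fold changes were 0.84 ± 0.23 for Cck (edgeR adjusted p = 0.207), 0.89 ± 0.25 for Nppc (0.214) and 0.61 ± 0.16 for Crhbp (0.166). Counting Tac1, 4 of the 10 genes lay wholly higher in Mut, against 2.57% of all genes.

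Npy had 55.1, 111, 104 and 75.8 CPM in Mut and 37.6, 67.7, 42.7 and 59.9 CPM in Ctrl. Only Mut replicate 1 lay within the Ctrl range, and the log2 fold change was 0.72 ± 0.22 (edgeR adjusted p = 0.294). Cort had 17.6, 47.6, 21.4 and 19.0 CPM in Mut and 18.2, 14.5, 10.96 and 11.9 CPM in Ctrl. Its difference of 0.89 ± 0.30 on the log2 scale (edgeR adjusted p = 0.344) leaned on Mut replicate 2, without which it was 0.49. Pthlh had 19.95, 29.95, 14.95 and 20.9 CPM in Mut and 15.5, 18.9, 17.8 and 18.3 CPM in Ctrl (log2 fold change 0.26 ± 0.19, edgeR adjusted p = 0.815). Mut replicate 3 lay below every Ctrl library and the other 3 Mut libraries above every one.

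The class-naming genes Sst and Vip were set by the same library. Sst had 6.10, 21.8, 9.24 and 5.74 CPM in Mut and 8.51, 6.10, 5.02 and 5.04 CPM in Ctrl. Vip had 3.75, 13.4, 1.54 and 5.44 CPM in Mut and 5.11, 5.04, 3.98 and 2.84 CPM in Ctrl. Mut replicate 2 stood well above every other Mut library for both, and without it the log2 difference was 0.20 for Sst and −0.24 for Vip, in place of 0.75 ± 0.39 and 0.46 ± 0.51 (edgeR adjusted p = 0.660 and 0.904). Pdyn was lower in Mut, with 12, 10, 0 and 0 counts in Mut replicates 1 to 4 (0.479, 0.448, 0 and 0 CPM) and 0.512 to 1.27 CPM in Ctrl. The 0 counts of Mut replicates 3 and 4 allow up to 0.0921 and 0.127 CPM, and the log2 fold change of −1.81 ± 0.92 did not pass the test (edgeR adjusted p = 0.644). The Pdyn ranges did not overlap, and 3.33% of all genes lay wholly lower in Mut.

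Over the list, 9 of the 10 genes had a log2 fold change above 0 in Mut, as did 52.3% of all genes, and their median was 0.74 against 0.01 for all genes. At an unadjusted p under 0.05 there were 6 of 10, all higher, where 4.20% of all genes were higher at that level. DESeq2 called 4 of the 10 higher (Tac1, Cck, Nppc and Crhbp), against 0.962% of all genes, and limma-voom with quality weights called 2 (Tac1 and Cck), against 0.932%.

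None of the 10 genes passed the test for the hormone injection in PTU-fed mice. All 10 had a log2 fold change below 0 in PTU_TH against PTU, with the sign for Pdyn turning with a covariate for Y-linked counts or for the share of long genes, but edgeR called none of them at an adjusted p under 0.05, which 0.281% of all 15288 genes passed and 0.0262% passed as lower genes. At an unadjusted p under 0.05, Tac1, Cort and Crhbp were lower, as were 3.47% of all genes. A log2 fold change below 0 was seen in 50.5% of all genes, and the median of the 10 was −0.56 against −0.003 for all genes.

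Tac1 had 55.4, 39.4, 63.9 and 97.6 CPM in PTU_TH replicates 1 to 4, against 72.8, 108 and 145 CPM in PTU replicates 5 to 7. Only PTU_TH replicate 4 lay within the PTU range, and the log2 fold change was −0.73 ± 0.26 (edgeR adjusted p = 0.494). Crhbp had 29.0, 17.8, 34.3 and 43.1 CPM in PTU_TH and 35.8, 59.4 and 77.0 CPM in PTU (−0.85 ± 0.26, edgeR adjusted p = 0.403). Here too PTU_TH replicate 4 overlapped the lowest PTU library. Cort had 4.37, 3.55, 3.55 and 4.58 CPM in PTU_TH and 4.66, 8.57 and 8.83 CPM in PTU (−0.82 ± 0.24, edgeR adjusted p = 0.361). It was the one gene of the 10 whose groups did not overlap (3.82% of all genes lay wholly lower), with PTU replicate 5 just above the PTU_TH libraries.

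Cck had 21.0, 15.9, 22.7 and 35.6 CPM in PTU_TH and 23.0, 36.1 and 50.8 CPM in PTU (log2 fold change −0.58 ± 0.26, edgeR adjusted p = 0.692). Pthlh had 6.80, 4.81, 7.18 and 11.5 CPM in PTU_TH and 8.41, 10.99 and 14.03 CPM in PTU (−0.53 ± 0.26, edgeR adjusted p = 0.743). Npy had 24.9, 17.0, 36.3 and 49.2 CPM in PTU_TH and 26.9, 37.4 and 56.5 CPM in PTU (−0.31 ± 0.31, edgeR adjusted p = 0.982). All 3 genes overlapped between the groups, with PTU replicate 7 highest and PTU_TH replicate 2 lowest. Sst lay at 2.40 to 13.6 CPM in PTU_TH and 6.99 to 15.2 CPM in PTU, and Vip at 2.04 to 7.09 CPM in PTU_TH and 2.33 to 7.71 CPM in PTU. Nppc lay at 4.81 to 7.31 CPM in PTU_TH and 5.18 to 8.04 CPM in PTU, and Pdyn at 0.575 to 2.70 CPM in PTU_TH and 0.906 to 2.56 CPM in PTU. The log2 fold changes of these 4 ran from −0.63 for Sst to −0.09 for Nppc, with edgeR adjusted p of 0.934 or more. Several of these values leaned on PTU replicate 7. Without it the log2 fold change was −0.032 for Npy, −0.31 for Cck, −0.33 for Sst, −0.12 for Vip, −0.01 for Nppc and 0.06 for Pdyn (edgeR adjusted p = 0.9996 for each).

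Single libraries stood at the top or bottom of a set for most of the 10 genes. In the Mut and Ctrl libraries, 9 of the 10 were highest in Mut replicate 2, and Pdyn was highest in Ctrl replicate 3. In the PTU_TH and PTU libraries, 9 were highest in PTU replicate 7, Pdyn in PTU_TH replicate 3, and 9 were lowest in PTU_TH replicate 2. The summed CPM of the 10 genes was 417, 795, 515 and 434 in Mut, 158, 108, 188 and 272 in PTU_TH, 187, 288 and 385 in PTU, and 273, 337, 281 and 269 in Ctrl.

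**Figure D2:**
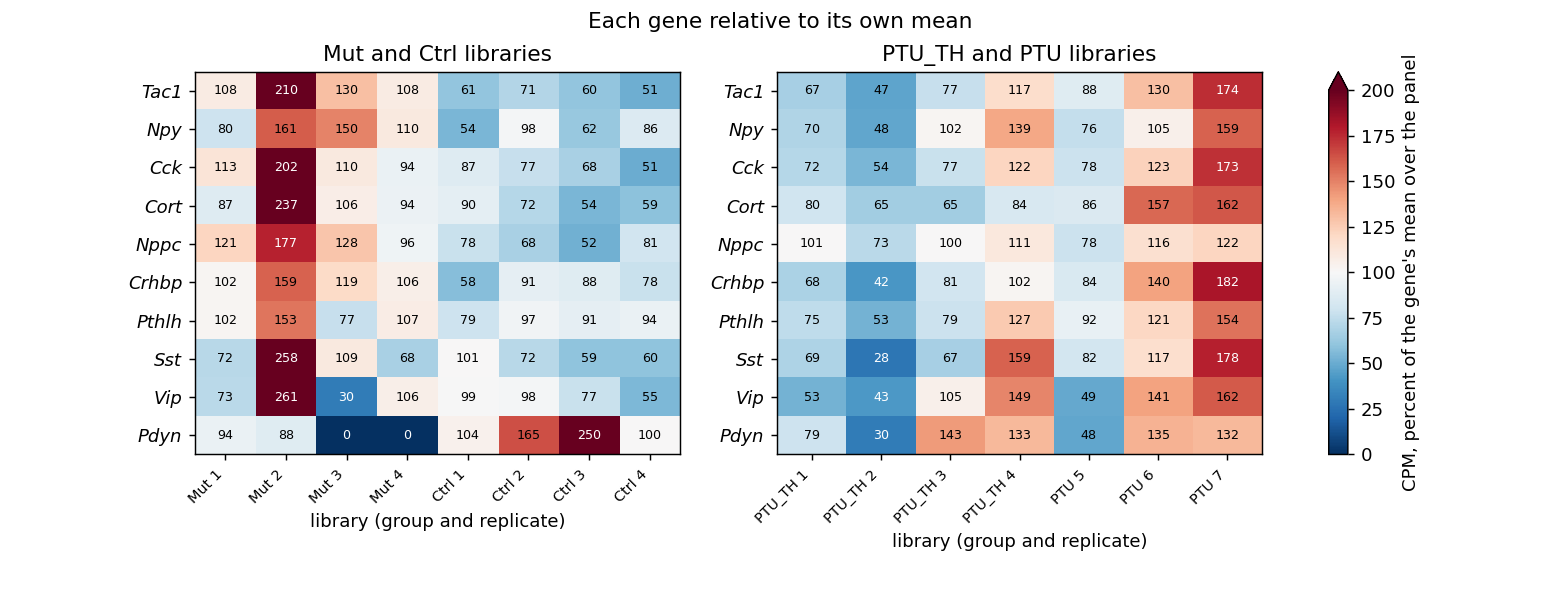
Level of each gene in each library as a percent of that gene's mean CPM over the panel's libraries, with Mut and Ctrl on the left and PTU_TH and PTU on the right. The columns of Mut replicate 2 and PTU replicate 7 are the highest for 9 of 10 genes in their panels, and PTU_TH replicate 2 is the lowest for 9 of 10.

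Genes longer than 100000 bases took a share of the counts that differed between the libraries. It was 36.7%, 27.4%, 34.6% and 34.6% in Mut, 34.1%, 40.7%, 28.4% and 24.9% in PTU_TH, 39.6%, 25.7% and 25.8% in PTU, and 39.7%, 29.5%, 33.0% and 31.6% in Ctrl. Mut replicate 2 had the lowest share of its set, and PTU_TH replicate 2 the highest of all. Genes spanning under 20000 bases, as all 10 do, had a median log2 fold change of 0.05 in Mut against Ctrl and −0.05 in PTU_TH against PTU. Of these short genes, 57.5% were above 0 in Mut against Ctrl and 59.4% below 0 in PTU_TH against PTU. With the share as a covariate, which was added once the data had been seen, edgeR called 2 of the 10 higher in Mut (Tac1, 1.13, adjusted p = 0.0123; Crhbp, 0.60, adjusted p = 0.0202), against 0.537% of all genes. In PTU_TH against PTU it then called 4 lower, namely Tac1 (−0.66, adjusted p = 0.000570), Crhbp (−0.76, 8.26e-05), Cck (−0.49, 0.0260) and Cort (−0.75, 0.0441). The covariate raised the calls over all genes as well, to 1011 against 43 without it, and 2.52% of all genes were then called lower. Y-linked counts as a covariate gave 2 lower in PTU_TH by edgeR, Tac1 (−0.63, adjusted p = 0.0339) and Crhbp (−0.73, 0.0166), against 0.615% of all genes. By limma-voom 1 was lower, Crhbp (−0.96, 0.0477), against 0.281% of all genes, and DESeq2 called none, against 0.471%. Within the Y-linked split, the log2 ratio of Tac1 in PTU_TH over PTU was −0.65 where those counts were present (2 libraries each) and −0.62 where they were absent (2 PTU_TH libraries and 1 PTU library).

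Whether the response to the hormone differed from the effect of the mutant receptor was tested directly in 1 fit of all 15 libraries, as the log2 fold change of PTU_TH over PTU minus that of Mut over Ctrl. Tac1, Crhbp and Cort differed between the effects. Tac1 had a difference of −1.91 ± 0.34 (edgeR adjusted p = 0.00611), Crhbp of −1.47 ± 0.32 (0.0227) and Cort of −1.72 ± 0.42 (0.0454). In all, 3 of the 10 were called, all lower, where 1.93% of 17317 genes were called and 0.739% were lower. Tac1 stayed past the threshold whichever 1 library was left out (15 of 15 omissions), Crhbp in 12 of 15 and Cort in 5 of 15. Crhbp was lost without PTU_TH replicate 1, PTU replicate 6 or PTU replicate 7 (edgeR adjusted p = 0.0556, 0.0648 and 0.0918), and Cort passed only without PTU replicate 5, Ctrl replicate 1 or Mut replicate 1, 2 or 4 (otherwise up to 0.151). Cort was also lost with Y-linked counts as a covariate (edgeR adjusted p = 0.121).

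Of the others, Cck had a difference of −1.44 ± 0.38 (edgeR adjusted p = 0.0661), Npy −1.04 ± 0.41 (0.282), Nppc −0.99 ± 0.32 (0.164), Pthlh −0.80 ± 0.33 (0.313), Sst −1.38 ± 0.65 (0.426), Vip −0.86 ± 0.76 (0.777) and Pdyn 1.69 ± 1.15 (0.661). Of the 10, 8 had an unadjusted p under 0.05, all lower, where 5.83% of all genes were lower at that level. In the same fit Pvalb differed the other way, by 1.08 ± 0.18 (edgeR adjusted p = 0.00306). Genes spanning under 20000 bases had a median difference of −0.11, with 59.8% below 0.

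**Figure D3:**
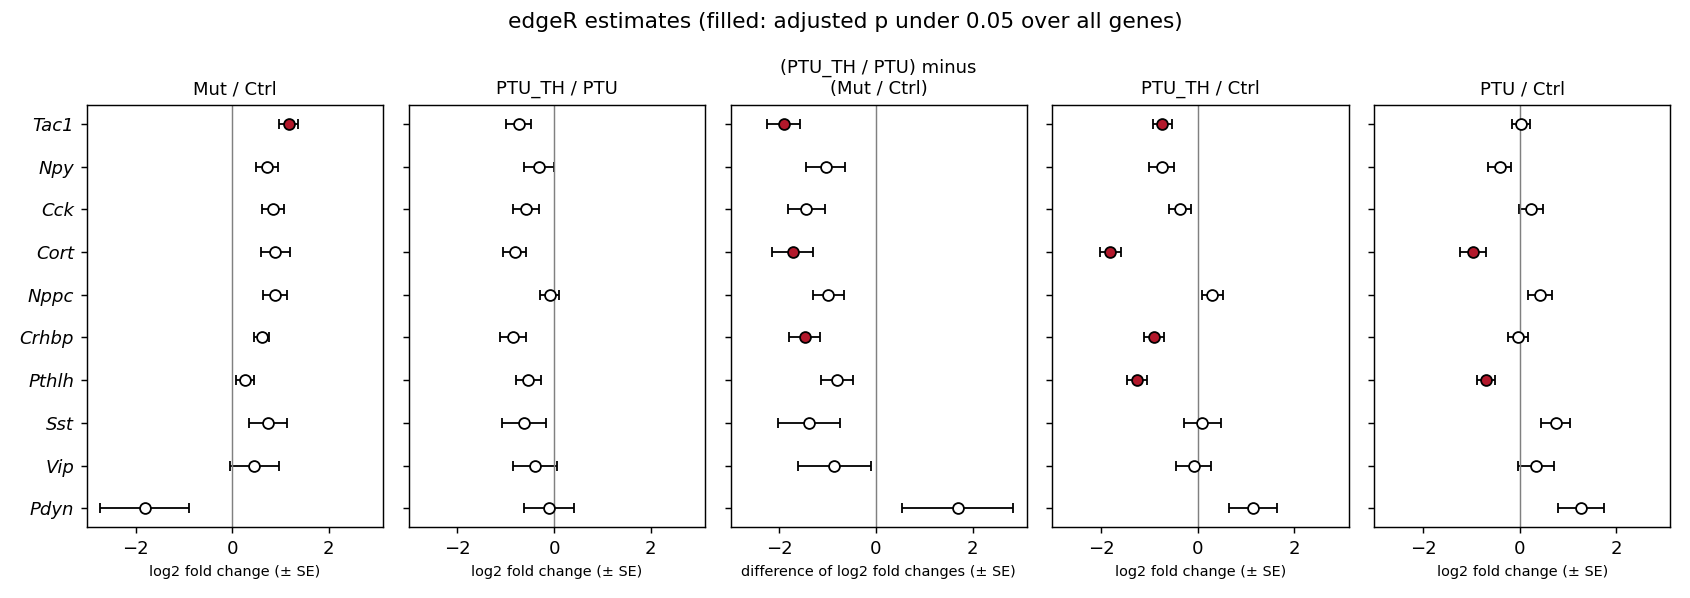
Log2 fold change of each gene with its standard error in Mut against Ctrl and PTU_TH against PTU, the difference of these effects, and PTU_TH and PTU each against Ctrl. Filled points passed an adjusted p of 0.05 in edgeR. In Mut 9 of 10 genes lie above 0, in PTU_TH all 10 lie below 0, and Tac1, Cort and Crhbp are filled in the difference.

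Setting the PTU-fed groups against untreated mice crosses the 2 sets of libraries, whose files list different genes, so set and group cannot be told apart. Cort and Pthlh were the genes that fell furthest there. Cort had 3.55 to 4.58 CPM in PTU_TH, 4.66 to 8.83 CPM in PTU and 10.96 to 18.2 CPM in Ctrl, with no overlap between the 3 groups. Pthlh had 4.81 to 11.5 CPM in PTU_TH, 8.41 to 14.03 CPM in PTU and 15.5 to 18.9 CPM in Ctrl, so that the PTU-fed groups overlapped each other and lay below Ctrl. Wholly lower ranges than in Ctrl were found for these 2 of the 10 genes in each PTU-fed group, and for 15% of all genes in PTU_TH and 16.9% in PTU. In PTU_TH against Ctrl, edgeR called 4 of the 10 lower, Cort (−1.81 ± 0.22, adjusted p = 6.27e-05), Pthlh (−1.26 ± 0.21, 0.000811), Crhbp (−0.91 ± 0.20, 0.00625) and Tac1 (−0.73 ± 0.20, 0.0200). The background here was high, with 17.8% of 15814 genes called and 13.1% called lower. Leaving out 1 library at a time kept Cort, Pthlh and Crhbp in 8 of 8 omissions and Tac1 in 5 of 8; Tac1 was lost without PTU_TH replicate 1, PTU_TH replicate 3 or Ctrl replicate 2 (edgeR adjusted p up to 0.0678). Npy, at −0.75 ± 0.26, missed the threshold in edgeR (adjusted p = 0.0635) and passed it in DESeq2 (adjusted p = 0.0273).

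In PTU against Ctrl edgeR called 2 of the 10 lower, Cort (−0.97 ± 0.27, adjusted p = 0.0283) and Pthlh (−0.70 ± 0.19, 0.0245), against 17% of 16496 genes called and 12.6% called lower. Cort passed in 2 of 7 omissions of a library, those of Ctrl replicates 3 and 4 (otherwise edgeR adjusted p = 0.0520 to 0.0646). Pthlh passed in 3 of 7, those of PTU replicates 5 and 7 and Ctrl replicate 1 (otherwise edgeR adjusted p = 0.0510 to 0.0957). Tac1 and Crhbp did not pass, with log2 fold changes of 0.02 ± 0.19 and −0.04 ± 0.21 (edgeR adjusted p = 0.968 and 0.933). Sst and Pdyn were higher at an unadjusted p under 0.05, as were 10.9% of all genes, but missed the adjusted threshold in edgeR (0.74 ± 0.29, adjusted p = 0.114, and 1.27 ± 0.48, 0.100). Both were called higher by limma-voom (1.00, adjusted p = 0.00683, and 1.57, 0.0101), which called 13.9% of all genes higher. Npy was not called in edgeR (−0.42 ± 0.24, adjusted p = 0.284), but was lower, beside Cort and Pthlh, with Y-linked counts as a covariate (−0.67, edgeR adjusted p = 0.0399) and with the share of long genes (−0.59, 0.0151), which called 12.9% and 16.8% of all genes lower.

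Ordered by group mean, Tac1, Cck, Crhbp and Vip ran from Mut through PTU and Ctrl to PTU_TH, and Npy, Cort and Pthlh from Mut through Ctrl and PTU to PTU_TH. Nppc ran from Mut through PTU and PTU_TH to Ctrl, Sst from PTU through Mut and PTU_TH to Ctrl, and Pdyn from PTU through PTU_TH and Ctrl to Mut. The mean of Tac1 was 237 ± 82.4 CPM in Mut, 64.1 ± 24.6 CPM in PTU_TH, 109 ± 36.0 CPM in PTU and 104 ± 13.4 CPM in Ctrl (SD). PTU and Ctrl, neighbours in the order of Tac1, Cck, Crhbp and Vip, overlapped for all 4 genes. Mut and Ctrl, neighbours for Npy, Cort and Pthlh, overlapped for those 3, while PTU_TH and PTU, neighbours for these and for Nppc and Pdyn, overlapped for all but Cort. Mut had the highest mean for 8 of the 10 genes and PTU_TH the lowest for 7. These orders cross the sets of libraries, between which set and group cannot be told apart.

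Other genes of the peptide pathway were counted from lists of precursors, receptors and processing enzymes. In Mut against Ctrl edgeR called 0.348% of all genes. None of the 10 precursors, 16 receptors or 21 processing and dense core vesicle genes tested was called there. The lowest p belonged to Vgf, a granin-like precursor of dense core vesicles, which had 164 to 227 CPM in Mut and 63.6 to 139 CPM in Ctrl (log2 fold change 0.98 ± 0.21, edgeR adjusted p = 0.0784). Its groups did not overlap. Scg2, the precursor secretogranin II, had 299 ± 33.5 CPM in Mut and 207 ± 31.0 CPM in Ctrl (SD; 0.52 ± 0.13, edgeR adjusted p = 0.141). Of the processing list, 8 genes were higher and 1 lower at an unadjusted p under 0.05, while the list's median was 0.001. At that level 4.2% of all genes were higher.

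In PTU_TH against PTU edgeR called 0.281% of all genes. None of the 8 precursors, 17 receptors or 21 processing genes tested was called there. Pnoc, the nociceptin precursor, had the lowest p of the precursors (0.48 ± 0.15, edgeR adjusted p = 0.407), Npy2r that of the receptors (2.46 ± 0.79, 0.421, at means of 0.658 CPM in PTU_TH and 0.111 CPM in PTU) and the convertase gene Pcsk2 that of the processing list (0.81 ± 0.20, 0.242). The difference between the hormone and mutant effects was called for 3 of 22 processing genes, all lower, where 1.93% of all genes were called and 0.739% were lower. They were Vgf (−2.04 ± 0.41, edgeR adjusted p = 0.0132), Ptprn, a transmembrane protein of dense core vesicles (−0.90 ± 0.18, 0.0149), and Rab3b, a small GTPase of secretory vesicles (−0.77 ± 0.17, 0.0277). Vgf had 164 to 227 CPM in Mut, 32.0 to 90.5 CPM in PTU_TH, 64.0 to 146 CPM in PTU and 63.6 to 139 CPM in Ctrl. None of the 12 precursors or 19 receptors tested passed in that contrast.

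Across the sets, edgeR called 1 of 10 precursors (higher), 2 of 18 receptors (higher) and 4 of 21 processing genes (lower) in PTU_TH against Ctrl. Of all genes, 17.8% were called there and 13.1% were called lower. In PTU against Ctrl edgeR called 2 of 10 precursors (1 higher, 1 lower), 2 of 17 receptors (higher) and 1 of 21 processing genes (lower). Of all genes, 17% were called there and 12.6% were called lower. Set and group cannot be told apart in either comparison. Among the precursors, Igf1 was called higher in PTU_TH (1.01 ± 0.29, edgeR adjusted p = 0.0277) and in PTU (1.27 ± 0.37, 0.0367) than in Ctrl, and Pnoc lower in PTU (−0.66 ± 0.16, 0.0166). Pth1r, the receptor of Pthlh, was called higher in both, at 14.1 ± 1.75 CPM in PTU_TH, 13.7 ± 1.15 CPM in PTU and 7.18 ± 2.18 CPM in Ctrl (SD). The edgeR log2 fold change was 0.96 ± 0.21 in PTU_TH (adjusted p = 0.00625) and 0.90 ± 0.24 in PTU (0.0223). The convertase gene Pcsk5 was called lower in both, by −1.62 ± 0.27 in PTU_TH and −1.51 ± 0.30 in PTU (edgeR adjusted p = 0.000774 and 0.00446). In PTU_TH against Ctrl the somatostatin and cortistatin receptor gene Sstr4 was called higher, at 15.6 ± 4.61 CPM in PTU_TH and 5.95 ± 2.36 CPM in Ctrl (SD; 1.36 ± 0.29, edgeR adjusted p = 0.00496). The vesicle genes Ptprn (−0.55 ± 0.12, edgeR adjusted p = 0.00592), Scg3 (−0.35 ± 0.10, 0.0261) and Vgf (−0.94 ± 0.28, 0.0336) were called lower there. In PTU against Ctrl the neuropeptide Y receptor gene Npy1r was called higher (1.51 ± 0.44, edgeR adjusted p = 0.0362), at means of 2.03 CPM in PTU and 0.681 CPM in Ctrl. All these comparisons share the Ctrl libraries.

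Markers of other cells were summed with the 10 genes left out. For Sst interneurons the summed level of 10 markers was 70.5 to 93.8 CPM in Mut, 51.6 to 72.8 CPM in PTU_TH, 54.4 to 90.9 CPM in PTU and 60.7 to 72.5 CPM in Ctrl. For Vip interneurons that of 10 markers was 17.8 to 29.2 CPM in Mut, 13.6 to 18.9 CPM in PTU_TH, 15.8 to 27.1 CPM in PTU and 13.9 to 21.1 CPM in Ctrl. For Lamp5, Ndnf and Cck interneurons that of 11 markers was 152 to 223 CPM in Mut, 84.2 to 148 CPM in PTU_TH, 104 to 127 CPM in PTU and 149 to 163 CPM in Ctrl. The 15 markers of parvalbumin and GABA neurons summed to 9503 to 11227 CPM in Mut, 7372 to 8922 CPM in PTU_TH, 7064 to 9061 CPM in PTU and 8682 to 10958 CPM in Ctrl. Erbb4 was the largest part of this sum, with means of 4385 CPM in Mut, 2002 CPM in PTU_TH, 2243 CPM in PTU and 3388 CPM in Ctrl. Cox6a2 of this list had no count in any library.

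**Figure D4:**
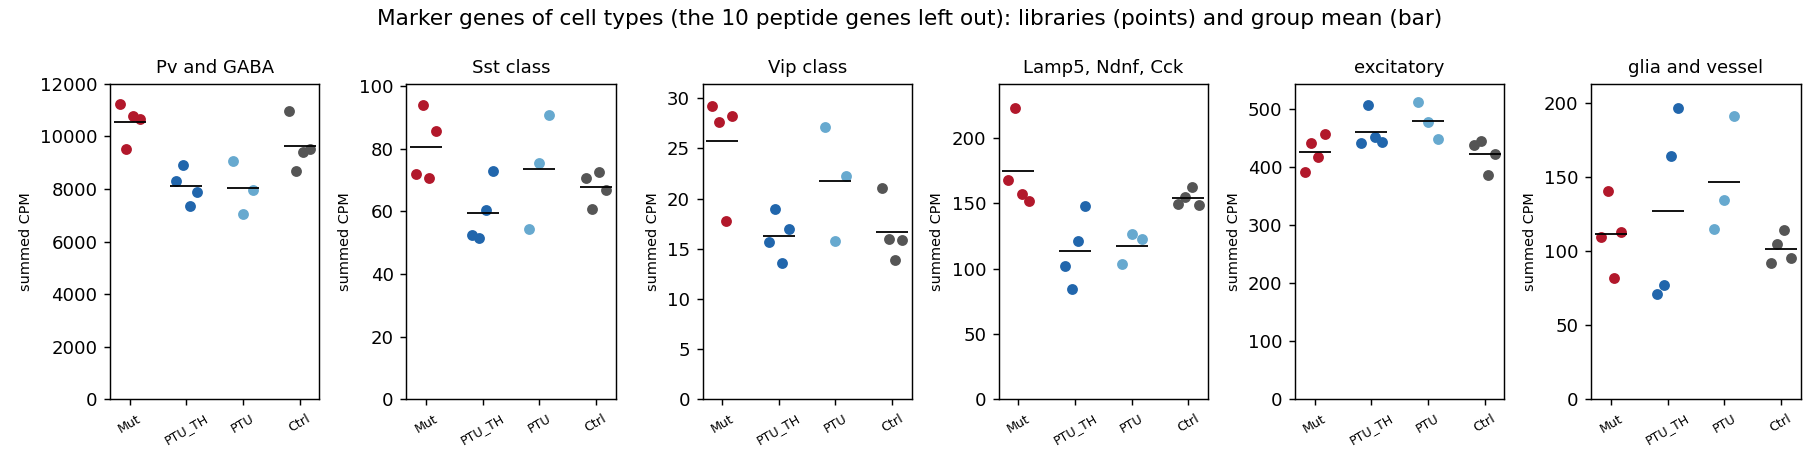
Summed CPM of marker lists of parvalbumin and GABA neurons and of other cell types in each library, with the 10 peptide genes left out. Points are libraries by group and bars are group means. The Vip interneuron list lies at 13.6 to 29.2 CPM over all libraries and the excitatory list at 387 to 512 CPM.

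Some markers of those interneurons were at or near 0 and others were not. Crispld2 and Slc18a3 had no count in any library, and the group means of Chodl, Chrna2, Calb2, Htr3a, Chat, Ndnf, Sncg and Krt73 were all under 0.4 CPM. Of the Lamp5, Ndnf and Cck list, group means were 11.9 to 14.6 CPM for Lamp5, 39.6 to 42.8 CPM for Reln, 32.2 to 40.8 CPM for Cnr1 and 6.74 to 10.98 CPM for Id2. Htr2c of the Vip list averaged 16.8 CPM in Mut, 8.42 CPM in PTU_TH, 11.3 CPM in PTU and 10.9 CPM in Ctrl. The sums of the Vip list averaged 25.7, 16.3, 21.7 and 16.7 CPM in the same order. Sv2c averaged 51.6 CPM in Mut, 7.79 CPM in PTU_TH, 7.70 CPM in PTU and 44.8 CPM in Ctrl. Adarb2 averaged 10.4 CPM in Mut, 3.02 CPM in PTU_TH, 3.81 CPM in PTU and 8.18 CPM in Ctrl. Both were called lower by edgeR in PTU_TH and in PTU against Ctrl, the comparisons in which Cort and Pthlh were lower. Of all genes, 13.1% and 12.6% were called lower there, and set and group cannot be told apart. Of the 8 tested markers of the Lamp5, Ndnf and Cck list, 4 were higher and 4 lower in each of these comparisons. Igf1 of the Vip list and Elfn1 of the Sst list were called higher in both, with Elfn1 at 3.80 CPM in PTU_TH, 3.97 CPM in PTU and 1.77 CPM in Ctrl. Fezf2 of the excitatory list and Mbp of the glial list were called higher in PTU against Ctrl. Most of the Sst list's sum came from Calb1 and Grin3a, which parvalbumin cells can also express. Calb1 averaged 42.7 ± 12.5 CPM in Mut, 17.6 ± 7.50 CPM in PTU_TH, 31.4 ± 11.6 CPM in PTU and 24.8 ± 4.70 CPM in Ctrl (SD), and was called lower in the difference of the hormone and mutant effects, the only called marker of the Sst, Vip and Lamp5 lists there. No marker of these 3 lists was called in Mut against Ctrl or in PTU_TH against PTU. Of all genes, 0.348% and 0.281% were called in these comparisons, in that order. In Mut against Ctrl, 3 of 7 tested Sst markers, 3 of 4 Vip markers and 8 of 8 Lamp5, Ndnf and Cck markers were higher, and in PTU_TH against PTU 2 of 6, 0 of 4 and 4 of 8 were. Excitatory neuron markers summed to 391 to 457 CPM in Mut, 442 to 506 CPM in PTU_TH, 449 to 512 CPM in PTU and 387 to 445 CPM in Ctrl. One of them, Rbp4, was called higher in Mut against Ctrl (53.1 ± 17.9 CPM in Mut and 16.9 ± 2.08 CPM in Ctrl, SD). Glia and vessel markers summed to 82.1 to 141 CPM in Mut, 71.2 to 197 CPM in PTU_TH, 115 to 191 CPM in PTU and 92.4 to 114 CPM in Ctrl. The part of other cells in the levels of the peptide genes was not tested further.

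The genes whose log2 CPM pattern was most like that of Tac1, by the mean of Pearson r over the 8 Mut and Ctrl libraries and over the 7 PTU_TH and PTU libraries, were Ly6h (0.971), Cck (0.964) and Resp18 (0.957) among 12049 genes. These libraries share their groups, depth and gene length shares, so the values describe likeness only. Of the other peptide genes, Crhbp ranked 7th (0.941), Cort 108th, Sst 125th, Npy 144th, Nppc 157th, Pthlh 333rd, Vip 1675th and Pdyn 6964th. Ly6h averaged 109 ± 34.9 CPM in Mut, 58.6 ± 15.4 CPM in PTU_TH, 90.3 ± 19.7 CPM in PTU and 55.3 ± 8.72 CPM in Ctrl (SD).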

How the data were processed

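For every library the authors deposited unnormalized gene counts. RNA of sorted nuclei was amplified with a SMART-Seq kit and made into Nextera XT libraries, per the labels' protocols. Reads were aligned with Bowtie2 2.5.3 to mm10 (GRCm38) and counted with HTSeq, per the submitters' processing notes. The labels do not state the counting mode, strand setting or annotation release, and the kits do not mark strand. Reads carry no molecular identifiers, so the floor of 3 counts covers counting error only. There were 55341 genes in the files of PTU_TH and PTU and 48321 genes in those of Mut and Ctrl. Comparisons across the sets used the 46380 shared symbols.

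Tests were run in R 4.3.3 with edgeR 4.0.16. Libraries were scaled by TMM (factors 0.897 to 1.08), genes filtered by filterByExpr (minimum count 10), and quasi-likelihood models fitted robustly. Benjamini-Hochberg adjustment ran over all genes tested, and a call is an adjusted p under 0.05. Printed CPM are scaled by the library total only. Alternatives were RLE scaling, DESeq2 1.42.0, limma-voom 3.58.1 with quality weights, other filters, 1 fit of all libraries, covariates for Y-linked counts (present above 10 CPM) and for the share of long genes, the replicate number as a block, and leaving out each library. Data were simulated with 200 changed genes, drawn only from genes above a minimum mean CPM. Pdyn did not reach it in any comparison, and Vip reached it only in Mut against Ctrl. Genes were simulated independently, without shifts shared within a library. In these data, 2-fold changes were recovered at 75% for Mut against Ctrl, 63% for PTU_TH against PTU, 79% for PTU against Ctrl, 89% for PTU_TH against Ctrl and 33% for the difference of effects. The biological coefficient of variation was 27.8%, 23.0%, 23.3%, 21.9% and 26.6% in the same order.

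The 10 genes, the gene lists and the tests were chosen with earlier results of these data known. All 10 are named in every comparison, with Pvalb, Thra and Hr as checks. Of each pathway list, up to 6 called genes with the smallest p were taken, or the top 2 by p if there was no call, and some of the uncalled ones are given only in the counts. For Tac1, the 3 most similar genes are named. Positions and exon lengths come from GENCODE M21, promoters from RefSeq. Penk, Igf1 and Tac2 stand in both the precursor list and the Vip marker list.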

Additional observations from a re-analysis of the deposited data

Results flagged for a closer look

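Among groups of 4 libraries, 51 were checked for a library far from the rest, and 4 stood out by Dixon's 95% criterion; chance gives about 1 in 20. Cort stood at 47.64 CPM in Mut replicate 2, where the other Mut libraries had 17.59 to 21.43 CPM. The summed markers of Vip interneurons were low in Mut replicate 3, at 17.81 CPM, with 27.63 to 29.16 CPM in the other Mut libraries. The summed markers of excitatory neurons were high in PTU_TH replicate 2, at 506.3 CPM, with 441.9 to 452.2 CPM in the other PTU_TH libraries; this is the library in which 9 of the 10 peptide genes were lowest. The summed CPM of the 10 peptide genes was 336.6 in Ctrl replicate 2, with 269.5 to 280.6 in the other Ctrl libraries, and it is the one Ctrl library with Y-linked counts.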

How the results depend on the processing

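In Mut against Ctrl 1 gene was called, but 4 by DESeq2, 2 by limma-voom, 0 with the Y-linked covariate and 2 with the long-gene covariate; omissions of 1 library gave 0 to 1. In PTU_TH against PTU 0 were called, but 1 by limma-voom, 2 with the Y-linked covariate and 4 with the long-gene covariate (omissions 0 to 0). In PTU against Ctrl 2 were called, but 4 by limma-voom, 1 in the fit of all libraries and 3, with Npy, under either covariate (omissions 0 to 3). In PTU_TH against Ctrl 4 were called, and 5, with Npy, by DESeq2, limma-voom, either covariate or the block (omissions 3 to 5). For the difference of effects 3 were called, but 5 by limma-voom and 5 with the long-gene covariate (omissions 1 to 4). These counts of peptide genes are given without the share of all genes called under the same setting. Some settings raised the calls over all genes too. In PTU_TH against PTU the long-gene covariate gave 1011 such calls in place of 43. More peptide genes called under a setting is therefore not read as a stronger result. Direction turned only where no call was made. Vip in Mut against Ctrl was −0.057 by limma-voom and −0.24 to 0.78 over omissions. In PTU_TH against PTU, Pdyn was 0.087 with the Y-linked and 0.062 with the long-gene covariate (omissions −0.42 to 0.18). In PTU against Ctrl, Crhbp was 0.062 by limma-voom (−0.28 to 0.17), Tac1 −0.19 and −0.11 with the Y-linked and long-gene covariates (−0.21 to 0.20), Vip −0.12 with the Y-linked covariate and Cck −0.039 to 0.44 over omissions. In PTU_TH against Ctrl, Sst was −0.15 with either covariate and −0.064 with the replicate block (omissions −0.41 to 0.36), and Vip −0.43 to 0.11. The causes were not tested. Replicate numbers showed no clear pairing (correlations of same-numbered deviations −0.037 to 0.29 for Mut and Ctrl, −0.32 to 0.16 for PTU_TH and Ctrl). For Mut and Ctrl the same number matched best for replicates 1 and 2 only, and so few libraries cannot exclude a pairing. As a block the numbers gave 1 and 5 calls. In Mut against Ctrl the block gave Tac1 a log2 fold change of 1.14 ± 0.13 (edgeR adjusted p = 0.00821), with 82 genes called in place of 59. Of the values of single genes with a library omitted, 395 kept their direction and side of the threshold, 32 lost a call, 8 gained one and 15 reversed. Of those under other settings, 370 kept both, 3 lost a call, 26 gained one and 10 reversed. Most of these values had no call in the main fits, so keeping the side mostly meant staying uncalled. Depth limits Pdyn, with 0 to 38 counts a library.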
